A study of Homo sapiens with 6 samples.

Results

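The genes studied here encode 6 proteins of the eosinophil granule or of the eosinophil crystal: CLC, EPX, PRG2, PRG3, RNASE2 and RNASE3. They were taken by symbol from the 58884 genes of the deposited count table, and all 6 were found once. They were picked with their values in these libraries known, so their levels, their fold changes and their levels against MPO are given as a description, with no test. The cells were HL-60, a RAS-mutated line derived from acute myeloid leukemia, with the character of promyelocytes. EZH2 shRNA cells had been transduced with a lentivirus carrying a short hairpin RNA (shRNA) against EZH2, giving a stable knockdown (3 libraries, numbered 1, 3 and 4 in their titles). Control cells carried a matching scrambled shRNA (3 libraries, numbered 3, 4 and 5). Both groups had been selected with puromycin, which was washed out 2 days before the experiment, and both were kept for 24 hours in medium with 0.05% fetal bovine serum before polyadenylated RNA was sequenced. The design text uses the word knock-out where the sample labels have knockdown. Whether replicates of a group are independent transductions or repeats of 1 culture is not stated, so the spread behind each p-value is that of these libraries and could be technical.

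Eosinophils store strongly basic proteins in large specific granules. Major basic protein (PRG2) forms the crystalline core, and eosinophil peroxidase (EPX), eosinophil-derived neurotoxin (RNASE2) and eosinophil cationic protein (RNASE3) fill the matrix around it. CLC encodes the galectin that forms Charcot-Leyden crystals. PRG3 encodes a homolog of major basic protein. These genes are transcribed early, in eosinophil-committed myeloid precursors, under factors of the GATA and C/EBP families. MPO, the peroxidase of azurophil granules, is a main product of the promyelocyte and serves here as the yardstick of a granule gene that HL-60 cells express strongly. EZH2 is the catalytic subunit of Polycomb repressive complex 2, which methylates histone H3 at silenced genes.

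Total counts lay between 50809853 and 85074624 in the EZH2 shRNA libraries and between 39717343 and 51622861 in the control libraries. A count of 0 allows a level of up to 3 counts, which was between 0.0353 and 0.0755 CPM (counts scaled to library size) per library, for counting error only. EZH2 mRNA, which checks the labels, averaged 79.98 ± 3.01 CPM in EZH2 shRNA libraries and 149.5 ± 1.61 CPM in control libraries (SD, n = 3 each; log2 fold change -0.90, SE 0.04, edgeR adjusted p = 3.219e-11). Of 16859 genes that passed the expression filter, 23.8% were higher and 22.9% lower in EZH2 shRNA cells at an edgeR adjusted p under 0.05. These shares are the background against which each count of genes below is to be read.

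The 6 genes lie at 4 places in the genome (GRCh38, coordinates of the deposited table). CLC (ENSG00000105205) is on the minus strand of chromosome 19, at 39731255 to 39738029. EPX (ENSG00000121053) is on the plus strand of chromosome 17, at 58192726 to 58205174, with MPO on the minus strand at 58269856 to 58280935. PRG3 (ENSG00000156575) and PRG2 (ENSG00000186652) are neighbours on the minus strand of chromosome 11, at 57376769 to 57381150 and 57386780 to 57390650. RNASE3 (ENSG00000169397) and RNASE2 (ENSG00000169385) are on the plus strand of chromosome 14, at 20891399 to 20892348 and 20955487 to 20956436. Reads of these libraries come from spliced, polyadenylated RNA, so each value below is a sum over the exons of a gene.

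The 250 bases before the annotated start are shown for 4 of the 6 genes, because they show what the pair RNASE2 and RNASE3 share upstream and where letters bound by GATA and C/EBP factors occur. They are RefSeq sequences on GRCh38.p14, read in the direction of transcription, at chr19:39738030-39738279 (minus strand) for CLC, chr11:57381151-57381400 (minus strand) for PRG3, chr14:20955237-20955486 (plus strand) for RNASE2 and chr14:20891135-20891384 (plus strand) for RNASE3. Capitals mark matches on either strand to the GATA letters AGATAA and also TGATAA, as well as AGATAG and the like TGATAG, or to the C/EBP letters TTNNGCAA.
CLC: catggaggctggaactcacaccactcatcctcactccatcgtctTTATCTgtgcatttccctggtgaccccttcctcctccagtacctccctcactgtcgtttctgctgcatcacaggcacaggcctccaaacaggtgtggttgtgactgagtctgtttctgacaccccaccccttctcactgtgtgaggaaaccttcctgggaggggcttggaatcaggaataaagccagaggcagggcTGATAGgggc
PRG3: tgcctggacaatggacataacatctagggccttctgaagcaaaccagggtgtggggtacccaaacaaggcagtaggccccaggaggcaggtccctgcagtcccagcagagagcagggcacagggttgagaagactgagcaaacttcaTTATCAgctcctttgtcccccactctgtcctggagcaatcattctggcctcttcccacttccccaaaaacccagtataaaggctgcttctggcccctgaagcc
RNASE2: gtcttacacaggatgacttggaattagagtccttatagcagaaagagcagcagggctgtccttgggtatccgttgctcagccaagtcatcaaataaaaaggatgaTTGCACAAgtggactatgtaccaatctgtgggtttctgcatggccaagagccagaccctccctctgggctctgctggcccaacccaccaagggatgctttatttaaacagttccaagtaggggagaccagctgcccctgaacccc
RNASE3: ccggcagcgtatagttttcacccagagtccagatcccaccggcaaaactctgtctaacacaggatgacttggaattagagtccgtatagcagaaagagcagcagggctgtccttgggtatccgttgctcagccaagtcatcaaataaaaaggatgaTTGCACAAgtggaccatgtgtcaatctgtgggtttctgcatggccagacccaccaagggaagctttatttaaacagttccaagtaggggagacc
The CLC window held 2 GATA matches, at 206 to 201 bases before the start on the opposite strand and at 10 to 5 bases before it. The PRG3 window held 1, at 103 to 98 bases before the start on the opposite strand, and a TATAAA at 29 to 24 bases, left in lower case. RNASE2 and RNASE3 held the same C/EBP match, TTGCACAA read along the sense strand, at 145 to 138 and at 94 to 87 bases before their starts. The RNASE3 window ends at 20891384, short of the start at 20891399 in the deposited coordinates, so its positions count from the RefSeq start. None of the 4 windows held the PU.1 letters AGGAAGT, and neither RNASE window held a GATA match. Of 35116 promoter windows of this length in the RefSeq table, 22.3% held a GATA match, 9.05% a C/EBP match, 7.01% a PU.1 match and 10.7% a TATAAA, counted on both strands. The RNASE2 and RNASE3 windows had 192 identical bases among 199 that aligned (96.5%), and the rest of each 250-base window faced a gap. The match positions describe letters only.

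All 6 genes were higher in every EZH2 shRNA library than in every control library, whereas 27.9% of all genes tested showed this, and the genes had been chosen on this contrast. Their summed level, in FPKM (counts scaled to gene length and library size), was 495.6 ± 20.1 in EZH2 shRNA libraries and 220.1 ± 2.42 in control libraries (SD, n = 3 each). The fitted log2 fold changes ran from 0.56 for RNASE2 to 6.33 for CLC, with a median of 2.27, beside a median of 0.01 over all genes tested. All but RNASE2 were at least 2-fold higher by the fit, as were 4.58% of all genes tested. The genes therefore differed far more among themselves than between libraries of a group. In these bulk libraries, more cells that express a gene and more RNA per cell cannot be told apart.

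**Figure D1:**
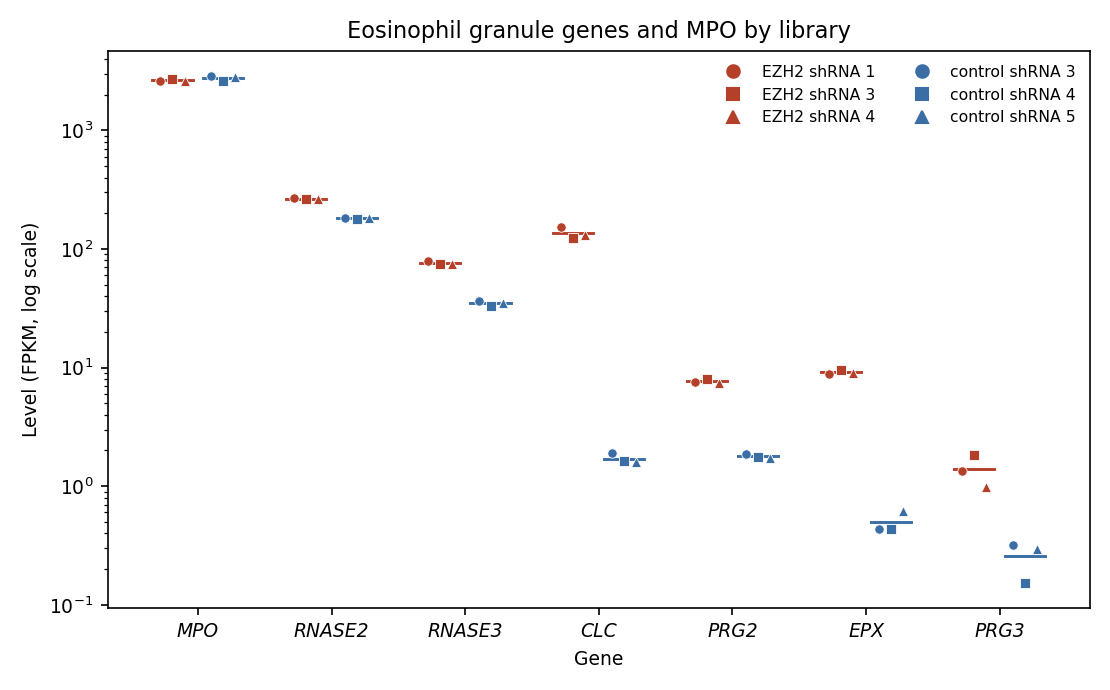
Level of each eosinophil granule gene and of MPO in FPKM (log scale) by library. Points are single libraries, horizontal lines are group means, with EZH2 shRNA libraries left of control libraries. CLC stands at 123.3 to 152.6 FPKM in EZH2 shRNA libraries and 1.6 to 1.886 FPKM in control libraries, while the MPO groups overlap.

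CLC, the crystal-forming galectin, showed the widest separation. Its level was 152.6, 123.3 and 132.3 FPKM in EZH2 shRNA libraries 1, 3 and 4, and 1.886, 1.637 and 1.6 FPKM in control libraries 3, 4 and 5. All 3 EZH2 shRNA libraries were high and all 3 control libraries low, and no control library came near the other group. The raw counts behind these levels were 4841, 4189 and 7146 in EZH2 shRNA libraries and 47, 54 and 43 in control libraries, so the control level was measured on far fewer reads. On the CPM scale CLC was 80.1-fold higher (log2 fold change 6.33, SE 0.11), the rank 11 change among all 16859 genes ordered from the highest. By mean FPKM, CLC was at rank 404 of all genes in EZH2 shRNA libraries and at rank 10580 in control libraries.

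EPX, the peroxidase that makes hypobromous acid in eosinophils, had the next largest difference. Its level was 8.81, 9.587 and 9.006 FPKM in EZH2 shRNA libraries and 0.4376, 0.4361 and 0.6216 FPKM in control libraries. Control library 5 was the highest of its group, and the groups did not overlap. EPX was 18.4-fold higher on the CPM scale (log2 fold change 4.21, SE 0.11, rank 47 of all genes tested). Its counts were 1204, 1404 and 2096 in EZH2 shRNA libraries and 47, 62 and 72 in control libraries. An antisense gene, AC005962.1, lies inside EPX on the opposite strand and had 102 counts over the EZH2 shRNA libraries and 27 over the control libraries. The strand setting of the counting is not given in the sources used here, so reads of the pair may not be separated.

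PRG2, major basic protein, had 7.591, 7.97 and 7.358 FPKM in EZH2 shRNA libraries and 1.866, 1.773 and 1.73 FPKM in control libraries. The libraries of each group lay close together, and PRG2 was 4.29-fold higher in EZH2 shRNA cells (log2 fold change 2.10, SE 0.09). PRG3, its homolog, had 1.351, 1.816 and 0.9815 FPKM in EZH2 shRNA libraries and 0.3204, 0.1541 and 0.2971 FPKM in control libraries. PRG3 was the lowest of the 6 genes in both groups and the most variable, with a SD of log2 CPM of 0.43 in EZH2 shRNA libraries and 0.48 in control libraries, against 0.06 and 0.05 for PRG2. Its counts were 59, 85 and 73 in EZH2 shRNA libraries and 11, 7 and 11 in control libraries, and it passed the expression filter through the EZH2 shRNA libraries alone, whereas the other 5 genes passed through either group. The fitted difference of PRG3 (log2 fold change 2.44, SE 0.35) was within its error of that of PRG2. The ratio of PRG2 to PRG3 was 5.84 ± 1.57 in EZH2 shRNA libraries and 7.72 ± 3.28 in control libraries (FPKM over FPKM, SD, n = 3 each), and these groups overlapped.

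RNASE2, the eosinophil-derived neurotoxin, was the most abundant of the 6 in both groups and differed least. Its level was 268.3, 262.9 and 264.7 FPKM in EZH2 shRNA libraries and 181, 180.3 and 181.8 FPKM in control libraries. Its spread was the smallest of the 6 genes, so the 1.47-fold difference on the CPM scale (log2 fold change 0.56, SE 0.04) still left a wide gap between the groups. RNASE3, the eosinophil cationic protein, had 79.58, 74.5 and 74.14 FPKM in EZH2 shRNA libraries and 36.25, 33.05 and 35.08 FPKM in control libraries. It was 2.198-fold higher in EZH2 shRNA cells (log2 fold change 1.14, SE 0.05). The ratio of RNASE2 to RNASE3 was 3.371, 3.529 and 3.57 in EZH2 shRNA libraries and 4.994, 5.456 and 5.181 in control libraries (FPKM over FPKM). The pair thus stood in a different ratio in the 2 groups, with no overlap. Their upstream windows were 96.5% identical over the 199 bases that aligned.

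**Figure D2:**
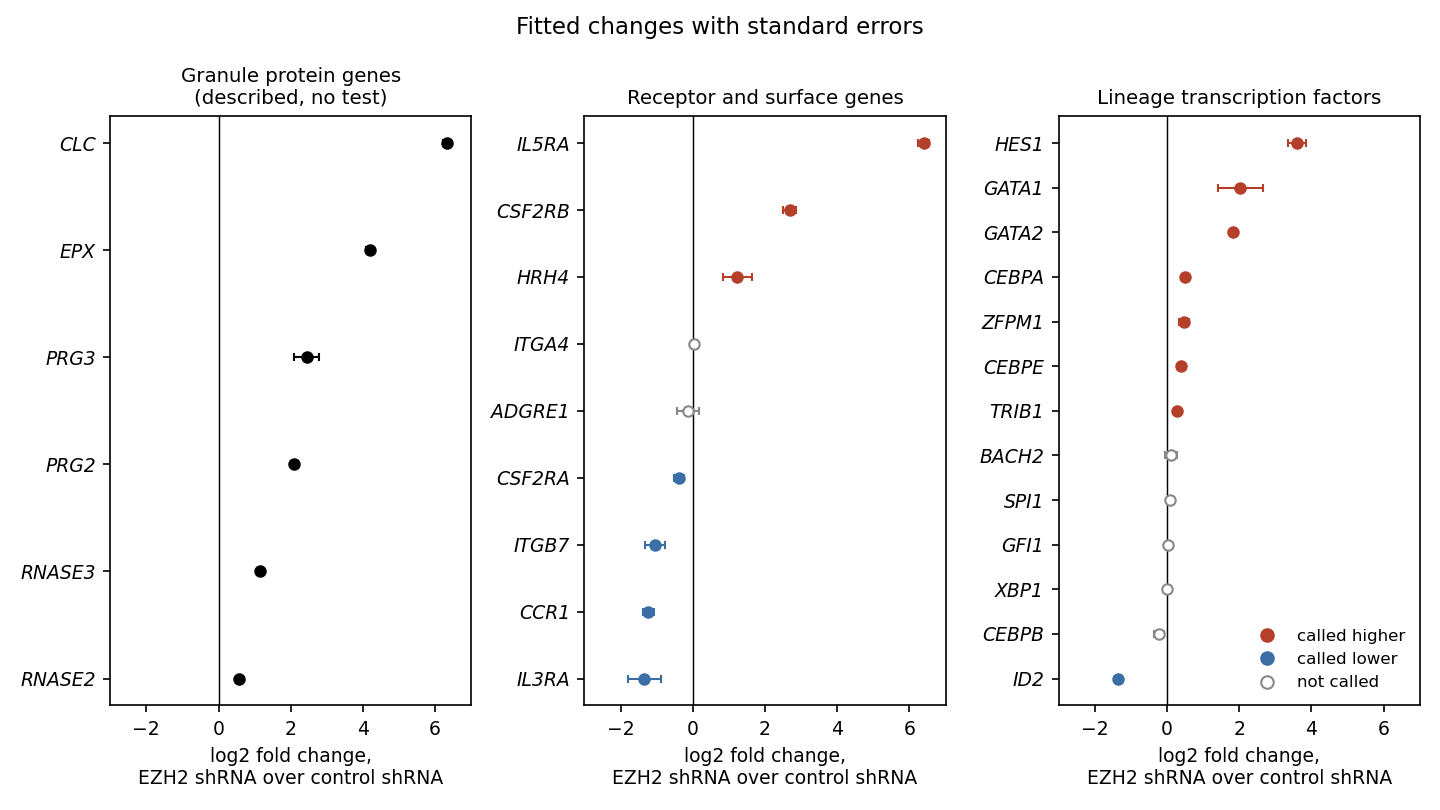
Fitted log2 fold change (EZH2 shRNA over control shRNA) with its standard error for the 6 granule protein genes, 9 receptor and surface genes and 13 lineage transcription factor genes. Filled points passed an edgeR adjusted p under 0.05 in the 2 lists, and the granule protein genes carry no test. IL5RA at 6.39 lies beside CLC at 6.33, while the called genes below 0 are ID2, CCR1, ITGB7, IL3RA and CSF2RA.

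The order of the 6 levels differed between the groups. In EZH2 shRNA libraries RNASE2 was highest, followed by CLC, RNASE3, EPX, PRG2 and PRG3, and no neighbours in that order overlapped in FPKM. In control libraries the order was RNASE2, RNASE3, PRG2, CLC, EPX and PRG3, and only PRG2 and CLC overlapped. CLC made up 27.4 ± 1.91% of the summed FPKM in EZH2 shRNA libraries and 0.776 ± 0.066% in control libraries. RNASE2 made up 53.6 ± 1.59% of the sum in EZH2 shRNA libraries and 82.3 ± 0.67% in control libraries. The share of RNASE3 was 15.35 ± 0.17% in EZH2 shRNA libraries and 15.8 ± 0.57% in control libraries (SD, n = 3 each throughout), and its groups overlapped. EPX, PRG2 and PRG3 together stayed a small part of the sum in both groups, with EPX at 1.85% in EZH2 shRNA libraries and 0.226% in control libraries.

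RNASE2, RNASE3 and PRG2 share stretches of sequence with other genes, so some of their reads may not be placed on one gene with certainty. Of the 671 stretches of 50 bases in the RNASE2 transcript, the length of a read, 122 occur in another gene, 111 in the pseudogene RNASE2CP and 21 in RNASE3. Of 685 such stretches in RNASE3, 36 occur elsewhere. The RNASE2 and RNASE3 transcripts were 88.8% identical over 717 aligned bases. PRG2 shares 744 of its 1382 stretches with an overlapping read-through gene on the same strand (ENSG00000254979), which had 2 counts over the EZH2 shRNA libraries and 7 over the control libraries. No stretch of CLC, EPX or PRG3 occurs in another gene, although PRG2 and PRG3 were 66.0% and EPX and MPO 71.4% identical where they aligned. How the counting treated reads with several matches is not given in the sources used here.

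Against MPO the 6 genes stayed minor in both groups. MPO had 2600, 2724 and 2628 FPKM in EZH2 shRNA libraries and 2866, 2628 and 2821 FPKM in control libraries, so its groups overlapped (log2 fold change -0.06, SE 0.05). MPO took up 0.937 ± 0.033% of all counts in EZH2 shRNA libraries and 0.983 ± 0.039% in control libraries. The 6 genes together took up 0.0373 ± 0.0008% of all counts in EZH2 shRNA libraries and 0.0162 ± 0.0002% in control libraries (SD, n = 3 each). Summed in FPKM, they came to 18.7 ± 1.16% of the MPO level in EZH2 shRNA libraries and 7.95 ± 0.28% in control libraries. These are RNA levels and give no amount of protein.

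**Figure D3:**
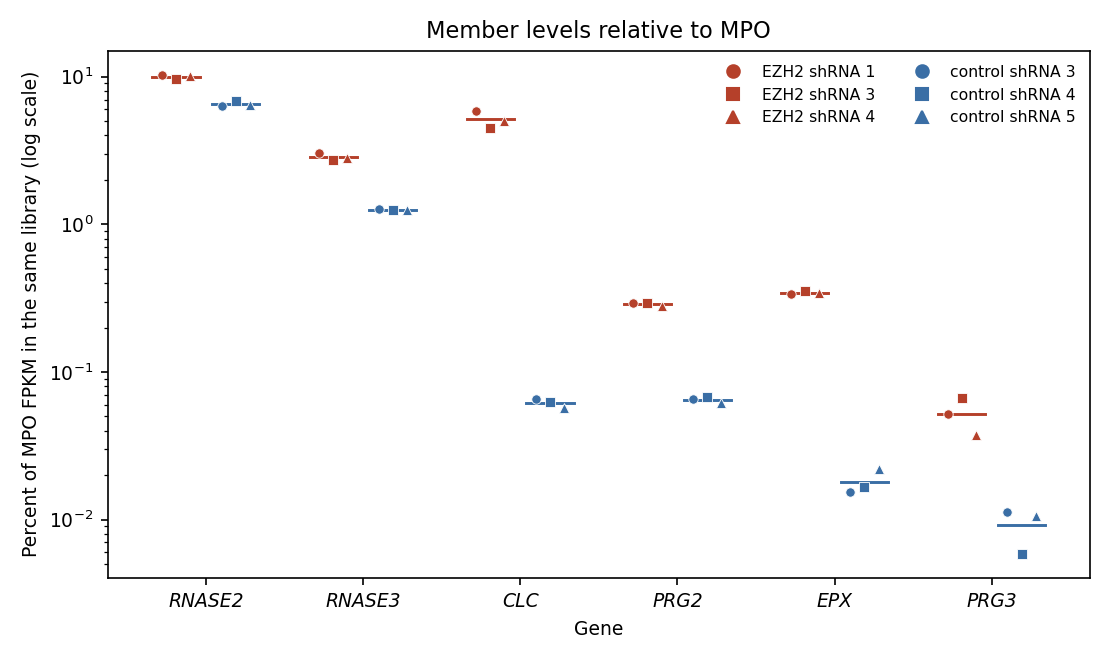
Level of each eosinophil granule gene as a percent of the MPO FPKM of the same library (log scale). Points are single libraries, horizontal lines are group means, with EZH2 shRNA libraries left of control libraries. RNASE2 reaches 9.652 to 10.32% and CLC 4.525 to 5.871% in EZH2 shRNA libraries, while EPX, PRG2 and PRG3 stay under 1% in every library.

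RNASE2 reached 10.01 ± 0.34% of the MPO level in EZH2 shRNA libraries and 6.54 ± 0.28% in control libraries. RNASE3 reached 2.87 ± 0.17% in EZH2 shRNA libraries and 1.26 ± 0.01% in control libraries. CLC reached 5.87, 4.53 and 5.04% in EZH2 shRNA libraries, against 0.0658, 0.0623 and 0.0567% in control libraries. Put the other way, MPO exceeded CLC 19.4-fold in EZH2 shRNA libraries and 1624-fold in control libraries. EPX, the closest relative of MPO among the 6, was at 0.345 ± 0.007% of the MPO level in EZH2 shRNA libraries and 0.0180 ± 0.0036% in control libraries, and MPO exceeded it 290.3-fold and 5566-fold in those groups. PRG2 was at 0.288 ± 0.007% of MPO in EZH2 shRNA libraries and 0.0646 ± 0.0031% in control libraries, and PRG3 at 0.0520 ± 0.0147% and 0.0092 ± 0.0029% (SD, n = 3 each throughout). Even the highest of the 6 therefore stayed 9.99-fold below MPO in EZH2 shRNA cells. The log2 differences of these ratios, EZH2 shRNA minus control, ran from 0.62 for RNASE2 to 6.38 for CLC.

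Receptor and surface genes of the eosinophil did not move as a block. Of 14 listed genes 9 were tested, of which 3 were higher, 4 lower and 2 not called, with a median log2 fold change of -0.13. IL5RA, the receptor chain that binds interleukin 5, had 18.08, 17 and 18.19 CPM in EZH2 shRNA libraries and 0.1772, 0.1727 and 0.2828 CPM in control libraries (log2 fold change 6.39, SE 0.15, edgeR adjusted p = 3.916e-15). All EZH2 shRNA libraries were high and the control level rested on 7, 9 and 12 counts. CSF2RB, the signalling chain that IL5RA shares with other receptors, was at 3.41 ± 0.11 CPM in EZH2 shRNA libraries and 0.522 ± 0.080 CPM in control libraries (log2 fold change 2.68, SE 0.18, edgeR adjusted p = 3.806e-09). HRH4, a histamine receptor, was also higher (log2 fold change 1.239, SE 0.40, edgeR adjusted p = 0.0168). The HRH4 call was lost without EZH2 shRNA library 3 (log2 fold change 0.93) and without control library 3 (1.09) or 4 (1.21), with edgeR adjusted p-values of 0.0597 to 0.0746, and in limma on log2(FPKM + 1).

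The 4 receptor and surface genes that fell were CCR1, a chemokine receptor (log2 fold change -1.23, SE 0.15), ITGB7, an integrin chain (-1.05, SE 0.28), IL3RA, the interleukin 3 receptor chain (-1.34, SE 0.46), and CSF2RA, the GM-CSF receptor chain (-0.39, SE 0.14). The IL3RA call was lost without EZH2 shRNA library 1 (-1.24) or 3 (-1.02) and without control library 3 (-1.29) or 4 (-1.21), and the CSF2RA call without EZH2 shRNA library 1 (-0.37) or 3 (-0.36) and without control library 3 (-0.36) or 5 (-0.38) or with a replicate block (-0.36), with edgeR adjusted p-values of 0.0512 to 0.109. IL5RA and HRH4 passed the expression filter through the EZH2 shRNA libraries alone and IL3RA through the control libraries alone. Among surface markers of mature eosinophils, CCR3 and SIGLEC8 were close to 0. CCR3, the eotaxin receptor, had 2, 1 and 5 counts in EZH2 shRNA libraries and 1, 3 and 0 in control libraries. SIGLEC8, an inhibitory surface lectin, had 2, 7 and 0 counts in EZH2 shRNA libraries and 0 in each control library. Neither gene reached the expression filter. The label of these 6 genes therefore names the proteins they encode. The libraries carried little RNA of CCR3 and SIGLEC8, but IL5RA, on the same list, was at 17 to 18.19 CPM in EZH2 shRNA libraries.

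Among transcription factor genes of the eosinophil lineage, 13 of 15 were tested, of which 7 were higher, 1 lower and 5 not called, with a median log2 fold change of 0.27. Of the 7, GATA1 and HES1 passed the expression filter through the EZH2 shRNA libraries alone, so they could enter the test only where they were high. GATA2, a factor of early eosinophil, basophil and mast cell precursors, had 421.5, 444.4 and 440.3 CPM in EZH2 shRNA libraries and 124.2, 122.5 and 121.0 CPM in control libraries (log2 fold change 1.83, SE 0.04, edgeR adjusted p = 3.409e-15). The groups were far apart beside their spread. GATA1, the factor that commits precursors to the eosinophil line, was barely present, with 10, 14 and 24 counts in EZH2 shRNA libraries and 5, 3 and 0 in control libraries (log2 fold change 2.03, SE 0.63, edgeR adjusted p = 0.0138). That call was lost without EZH2 shRNA library 4 (log2 fold change 1.91), without control library 4 (2.00) or 5 (1.49) and with a replicate block (1.62), with edgeR adjusted p-values of 0.0527 to 0.0634.

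CEBPA and CEBPE, the C/EBP factors of granulocyte development, were already strongly expressed and rose by smaller amounts. CEBPE was at 442.2 ± 7.38 CPM in EZH2 shRNA libraries and 340.0 ± 6.64 CPM in control libraries (log2 fold change 0.38, SE 0.04, edgeR adjusted p = 6.13e-07). CEBPA was at 181.3 ± 2.43 CPM in EZH2 shRNA libraries and 128.8 ± 7.24 CPM in control libraries (log2 fold change 0.49, SE 0.04, edgeR adjusted p = 1.027e-07). HES1, a Notch target, rose by 3.599 (SE 0.24), TRIB1, a C/EBP regulator, by 0.27 (SE 0.04) and ZFPM1, the GATA cofactor FOG1, by 0.48 (SE 0.14) on the log2 scale. ID2, an inhibitor of basic helix-loop-helix factors, was at 8.23 ± 0.57 CPM in EZH2 shRNA libraries and 20.9 ± 1.04 CPM in control libraries (log2 fold change -1.35, SE 0.08, edgeR adjusted p = 4.79e-10). SPI1, which encodes PU.1, was not called (log2 fold change 0.09, SE 0.04, edgeR adjusted p = 0.0558) but was without EZH2 shRNA library 1 (edgeR adjusted p = 0.0358). XBP1, which eosinophil precursors need in mice, was not called (log2 fold change -0.01, SE 0.04). IRF8 had no count in any library.

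A list of lipid mediator, enzyme and other genes of the eosinophil, LGALS12 among them, was split. Of its 12 genes 9 were tested, with 4 higher, 3 lower and 2 not called (median log2 fold change -0.02). Of the 4, CYSLTR2 and HPGDS passed the expression filter through the EZH2 shRNA libraries alone. ALOX5AP, the partner of the leukotriene-forming lipoxygenase, was at 136.7 ± 5.25 CPM in EZH2 shRNA libraries and 61.5 ± 0.39 CPM in control libraries (log2 fold change 1.15, SE 0.04, edgeR adjusted p = 2.462e-12). CYSLTR2, a leukotriene receptor, had 136 counts over the EZH2 shRNA libraries and 3 over the control libraries, a depth-adjusted ratio of 32.3 (exact 95% interval 10.8 to 158.4, counting error only). HPGDS, prostaglandin D synthase, rose by 2.15 (SE 0.42) and ARSB, a lysosomal sulfatase, by 0.35 (SE 0.07) on the log2 scale. LGALS12, a galectin of myeloid and fat cells, fell to 44.07 ± 0.30 CPM in EZH2 shRNA libraries, against 115.0 ± 4.92 CPM in control libraries (log2 fold change -1.38, SE 0.04, edgeR adjusted p = 3.845e-13), so the galectins CLC and LGALS12 differed in opposite directions. CYSLTR1, the other leukotriene receptor, fell by 0.77 (SE 0.07) and CAT, catalase, by 0.15 (SE 0.04). ALOX15, the lipoxygenase typical of mature eosinophils, had 5, 2 and 7 counts in EZH2 shRNA libraries and 1, 0 and 0 in control libraries and was not tested.

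Genes of granule packaging and secretion showed no common direction. All 14 listed genes were tested, with 3 higher, 4 lower and 7 not called and a median log2 fold change of 0.08. CD63, a tetraspanin of granule membranes, rose by 0.53 (SE 0.04), UNC13D, a priming factor, by 0.31 (SE 0.04) and LAMP1 by 0.17 (SE 0.04) on the log2 scale. RAB27A, a GTPase of secretory granules, fell by 0.51 (SE 0.05), the fusion protein VAMP8 by 0.41 (SE 0.05), LAMP2 by 0.23 (SE 0.04) and VAMP7 by 0.19 (SE 0.06). The VAMP7 call was lost without EZH2 shRNA library 4 (-0.15) or control library 3 (-0.17), with edgeR adjusted p-values of 0.0808 and 0.0565. SRGN, the proteoglycan that binds basic granule proteins, was at 992.6 ± 79.3 CPM in EZH2 shRNA libraries and 941.4 ± 8.14 CPM in control libraries and was not called.

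The list of azurophil granule genes and related genes other than MPO was also mixed. Of its 11 genes 10 were tested, with 4 higher, 4 lower and 2 not called (median log2 fold change 0.08). PRTN3, proteinase 3, was at 96.5 ± 6.32 CPM in EZH2 shRNA libraries and 21.8 ± 2.70 CPM in control libraries (log2 fold change 2.14, SE 0.08, edgeR adjusted p = 1.553e-08). Its relative AZU1, azurocidin, rose by 0.69 (SE 0.05) and RNASE6, an RNase of the family of RNASE2 and RNASE3, by 1.001 (SE 0.20) on the log2 scale. LYZ, lysozyme, fell by 0.53 (SE 0.05), CTSC, which activates granule proteases, by 0.40 (SE 0.04), BPI by 1.30 (SE 0.22) and the protease CTSG by 0.22 (SE 0.04). ELANE, neutrophil elastase, had 4, 12 and 11 counts in EZH2 shRNA libraries and 0, 3 and 2 in control libraries and was not tested.

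The near relatives of the 6 genes were mostly silent. Of 27 listed paralogs 14 had no count in any library, among them RNASE1, RNASE7 and the galectins LGALS3 and LGALS13. Of the 8 tested, 1 was higher (RNASE6), 2 were lower (LGALS12 and LGALS8) and 5 were not called, with a median log2 fold change of -0.13. RNASE6 and LGALS12 were also counted in the lists above. The LGALS8 call (log2 fold change -0.13, SE 0.04) was lost without EZH2 shRNA library 4 or control library 4 (-0.12 in both), with edgeR adjusted p-values of 0.0716 and 0.0582. LPO, the peroxidase gene between EPX and MPO, had 2, 0 and 4 counts in EZH2 shRNA libraries and 2, 0 and 0 in control libraries. LGALS14, the galectin gene next to CLC, had 17 counts over the EZH2 shRNA libraries and 0 over the control libraries, at least 4.03-fold higher against a limit of 3 counts over the control group, and it did not reach the expression filter. RNASE6 itself was low, at 1.61 ± 0.17 CPM in EZH2 shRNA libraries and 0.792 ± 0.062 CPM in control libraries.

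**Figure D4:**
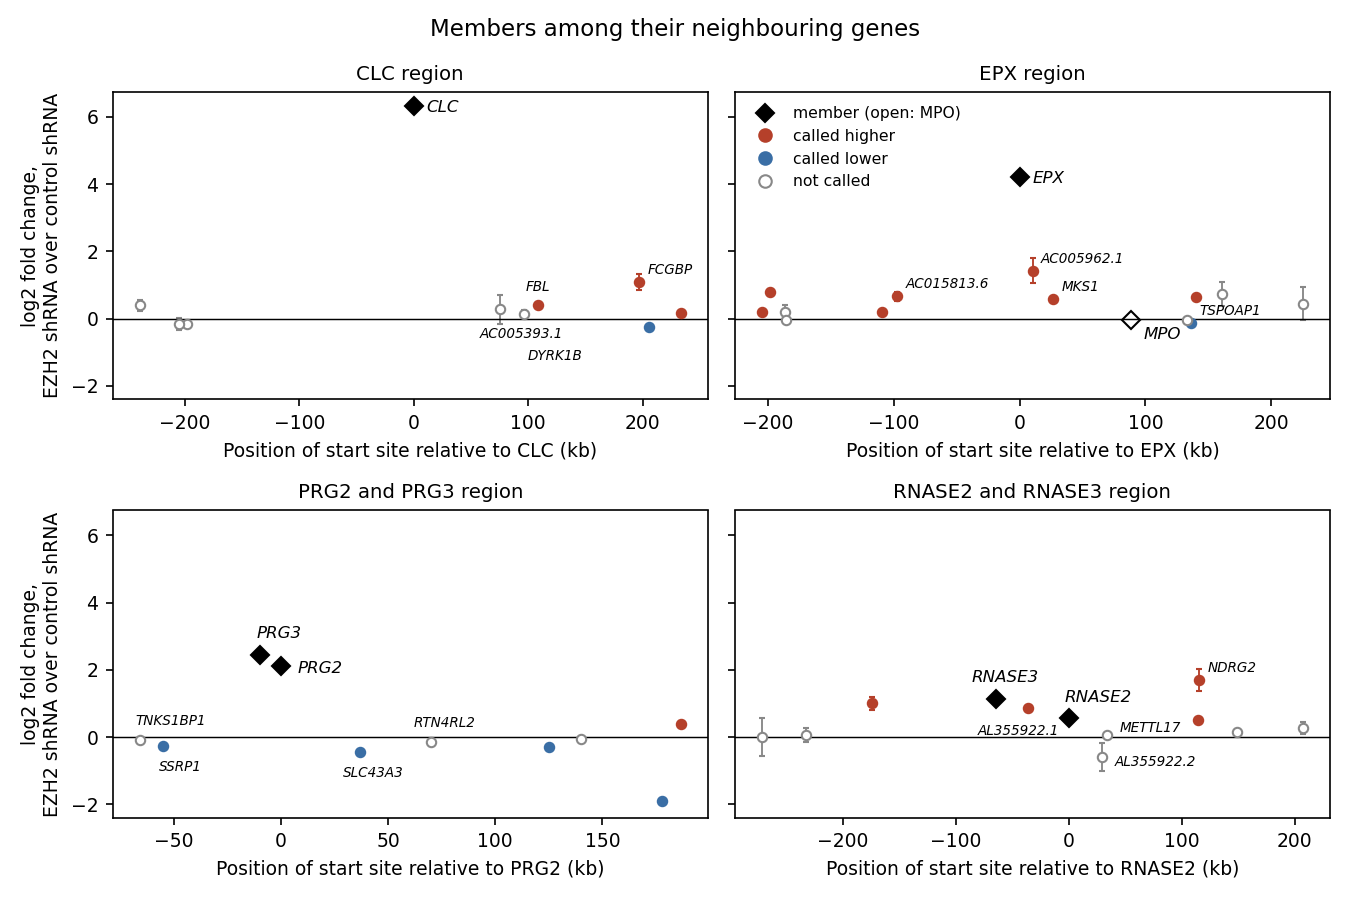
Fitted log2 fold change (EZH2 shRNA over control shRNA, bars are standard errors) of the tested genes within 250 kb of each eosinophil granule gene, against the position of their start sites in kb. Diamonds are the granule genes and MPO (open), and filled circles passed an edgeR adjusted p under 0.05. No tested neighbour comes near CLC at 6.33 or EPX at 4.21, and the highest, NDRG2, is at 1.70.

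The tested genes around CLC and EPX differed far less than CLC and EPX themselves. LGALS14, 21.81 kb from CLC, had 17 counts over the EZH2 shRNA libraries and 0 over the control libraries and was not tested. Near RNASE2 and RNASE3, NDRG2 differed more than those 2 genes. Leaving out the 6 genes and MPO, 40 genes within 250 kb were tested, of which 15 were higher and 6 lower, with a median log2 fold change of 0.18 and a range of -1.91 to 1.70. Near CLC, 3 of 9 were higher and 1 lower, and the largest difference was that of FCGBP, an Fc-binding mucin-like protein (log2 fold change 1.08, SE 0.25, edgeR adjusted p = 0.00162). FBL, the nucleolar methyltransferase fibrillarin, rose by 0.40 (SE 0.04), while DYRK1B, a protein kinase gene at 0.14 (SE 0.12), and AC005393.1 at 0.28 (SE 0.42) were not called. Near EPX, 7 of 13 were higher and 1 lower. MKS1, a ciliary gene whose end lies 0.263 kb from that of EPX on the opposite strand, rose by 0.57 (SE 0.07), AC005962.1 inside EPX by 1.42 (SE 0.37) and AC015813.6 by 0.66 (SE 0.13). AC005962.1 had 5, 9 and 13 counts in control libraries and passed the expression filter through the EZH2 shRNA libraries alone. Its reads may not be separated from those of EPX. TSPOAP1, on the far side of MPO, was at -0.14 (SE 0.05, edgeR adjusted p = 0.0357), a call that was lost without EZH2 shRNA library 1 (-0.10) or 4 (-0.15), without control library 3 (-0.15) or 5 (-0.10) and in 5 other alternatives.

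Around PRG2 and PRG3, 1 of 8 genes was higher and 4 were lower. Those genes had a median log2 fold change of -0.20, close to the median of -0.23 over the 874 genes tested on chromosome 11. The largest difference there was that of UBE2L6, a ubiquitin-conjugating enzyme gene 161 kb from PRG2, named after its value was seen, at 6.26 CPM in EZH2 shRNA libraries and 23.6 CPM in control libraries (log2 fold change -1.91, SE 0.08, edgeR adjusted p = 1.385e-11). SLC43A3, an amino acid transporter family gene next to PRG2, fell by 0.46 (SE 0.04) and SSRP1, a histone chaperone gene, by 0.26 (SE 0.04), while TNKS1BP1 at -0.09 (SE 0.05) and RTN4RL2 at -0.14 (SE 0.12) were not called. PRG2 and PRG3 thus lay among genes whose median was below 0. Around RNASE2 and RNASE3, 4 of 10 genes were higher, RNASE6 among them, and the rest were not called. NDRG2 rose by 1.70 (SE 0.32), at 1.22 CPM in EZH2 shRNA libraries and 0.382 CPM in control libraries, and AL355922.2 at -0.60 (SE 0.42) and METTL17 at 0.08 (SE 0.04) were not called. AL355922.1, the ID ENSG00000136315 that the reference gene names call RNASE2CP, an RNase pseudogene between RNASE3 and RNASE2, was at 23.6 ± 1.18 CPM in EZH2 shRNA libraries and 13.02 ± 0.83 CPM in control libraries (log2 fold change 0.86, SE 0.07, edgeR adjusted p = 3.588e-08). It shares sequence with both genes, and its difference lay between theirs.

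The genes whose profile came closest to the mean profile of the 6 were sought over the 6 libraries, by the root mean square difference of log2 CPM after the mean of each gene was removed. They were SLC45A3, a solute carrier (0.087), CCNA1, cyclin A1 (0.1198), NRCAM, a neuronal adhesion molecule (0.130), SMO, the Hedgehog signal transducer (0.133), SERPINA1, alpha-1 antitrypsin (0.137), F5, coagulation factor V (0.148), FAM78B (0.154) and GNAZ, a G protein subunit (0.160). Without SERPINA1, their fitted log2 fold changes lay between 2.61 and 2.97, near the mean difference of the 6 genes, which is what the measure asks for. SERPINA1 had 45 counts over the EZH2 shRNA libraries and 0 over the control libraries, at least 10.7-fold higher against 3 counts over the control group, and its place rests on the prior count. The mean profile itself fits none of the 6 closely, since CLC lay 2.997 to 3.311 above its own mean in EZH2 shRNA libraries and RNASE2 0.26 to 0.30 above.

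**Figure D5:**
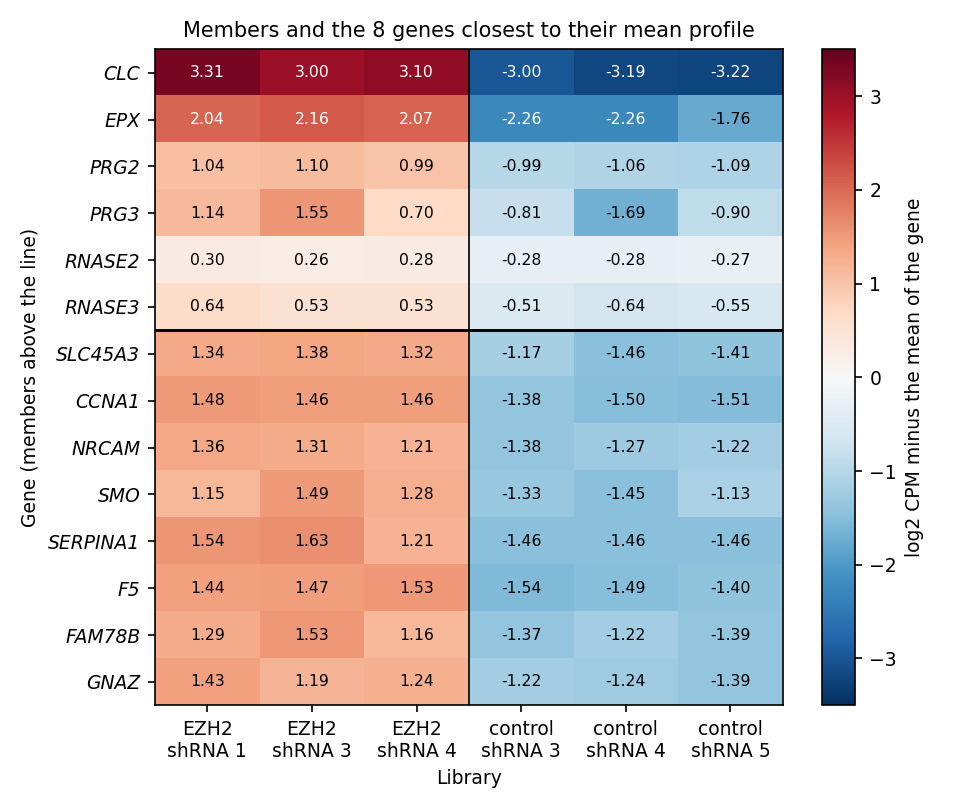
Log2 CPM minus the mean of each gene over the 6 libraries, for the 6 granule protein genes (above the line) and the 8 genes closest to their mean profile. EZH2 shRNA libraries stand left of control libraries. PRG3 varies most within groups (0.70 to 1.55 in EZH2 shRNA libraries, -1.69 to -0.81 in control libraries), while RNASE2 varies least.

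Markers of other blood cells were measured beside these genes. The 10 eosinophil markers summed to 382.1 to 407.9 CPM in EZH2 shRNA libraries and 159.9 to 163.2 CPM in control libraries, with 7 of the 10 tested, 6 of which are the granule genes themselves. The 5 promyelocyte markers, led by MPO, summed to 9560 to 9965 CPM in EZH2 shRNA libraries and 9527 to 10340 CPM in control libraries. The 6 basophil and mast cell markers summed to 6.57 to 7.63 CPM in EZH2 shRNA libraries and 1.16 to 1.60 CPM in control libraries, with 3 of 6 tested. HDC, histidine decarboxylase, carried most of it, at 6.04 ± 0.66 CPM in EZH2 shRNA libraries and 0.865 ± 0.161 CPM in control libraries (log2 fold change 2.79, SE 0.16, edgeR adjusted p = 4.924e-10). CPA3, the mast cell carboxypeptidase, had 92 counts over the EZH2 shRNA libraries and 2 over the control libraries, a depth-adjusted ratio of 32.8 (exact 95% interval 8.81 to 274.4). FCER1A, an IgE receptor chain found on basophils and mast cells, had 2, 0 and 1 counts in EZH2 shRNA libraries and 0 in each control library. On the longer list of 16 basophil and mast cell genes, 5 of 8 tested were higher and 2 lower (median log2 fold change 1.81), and GATA2 and HPGDS stand on it too. Of the 5, CPA3 and HPGDS passed the expression filter through the EZH2 shRNA libraries alone. MS4A2, a chain of the IgE receptor, was not called (log2 fold change 0.17, SE 0.33, edgeR adjusted p = 0.708), and MS4A3 (-0.40, SE 0.05) and FCER1G (-0.81, SE 0.13) were lower. MITF, also on this list, was higher (log2 fold change 1.80, SE 0.28, edgeR adjusted p = 4.449e-05). HDC, CPA3, GATA2, MITF and HPGDS thus moved in the direction of the eosinophil granule genes. MS4A2, MS4A3 and FCER1G were not called higher. The part of these cells' genes in the result was not tested.

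Neutrophil, monocyte and erythroid markers stayed low. The 4 neutrophil markers summed to 0.149 to 0.301 CPM in EZH2 shRNA libraries and 0 to 0.0471 CPM in control libraries, with LCN2 and MMP8 at 0 in every library. Of 11 specific granule genes only TCN1, a vitamin B12 carrier, reached the expression filter, and it was higher, at 6.60 ± 0.32 CPM in EZH2 shRNA libraries and 0.362 ± 0.059 CPM in control libraries (log2 fold change 4.19, SE 0.16, edgeR adjusted p = 5.923e-12). Among the untested ones, LTF had 34 counts over the EZH2 shRNA libraries and 2 over the control libraries. CEACAM8 went the other way, with 0 and 22 counts. The 4 monocyte markers summed to 0.864 to 1.08 CPM in EZH2 shRNA libraries and 0.307 to 0.448 CPM in control libraries. Of 11 monocyte genes 2 were tested, and both passed the expression filter through the EZH2 shRNA libraries alone, so their direction was largely fixed by the filter: CSF1R, the M-CSF receptor (log2 fold change 3.02, SE 0.41), and LILRB2, an inhibitory receptor (1.30, SE 0.40), whose call was lost without control library 3 (1.25) or 4 (0.86), with edgeR adjusted p-values of 0.0553 and 0.0901. The 5 erythroid and megakaryocyte markers summed to 3.84 to 4.34 CPM in EZH2 shRNA libraries and 1.86 to 2.35 CPM in control libraries, with HBB and PF4 at 0 in every library. Of 16 erythroid and megakaryocyte genes 5 were tested, and NFE2 (1.41, SE 0.07), TFRC (0.41, SE 0.04), KLF1 (0.86, SE 0.15) and ITGA2B (1.41, SE 0.37) were higher and EPOR (-0.39, SE 0.09) lower, as log2 fold changes. ITGA2B passed the expression filter through the EZH2 shRNA libraries alone. The share of these markers in the levels of the eosinophil granule genes was not tested.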

How the data were processed

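Polyadenylated RNA of 6 HL-60 libraries was sequenced in single reads of 50 bases from a stranded kit, per the labels' protocols. The authors deposited raw counts per gene and, in a second table, FPKM. Per the submitters' processing notes, GRCh38 (hg38), DESeq2 1.24.0, R 3.6.1, Picard 2.18.24 and STAR 2.5.2b were used, with no role given. How reads were counted (program, annotation, strand) is not given in the sources used here. Dividing the deposited counts by the deposited FPKM and by size factors returned whole gene lengths (tolerance 0.001) for 29060 of 29060 genes with a count, so the FPKM table rescales the same counts.

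Groups came from the labels. The 58884 genes were filtered with filterByExpr (at least 10 counts at the median library size in 3 libraries), which left 16859. Differences were tested in edgeR 4.0.16 (R 4.3.3) by quasi-likelihood (TMM scaling, robust, group as the only term), with Benjamini-Hochberg adjustment over all genes tested and a threshold of 0.05. Called means past that threshold. SE is the log2 fold change over the root of F, and CPM and FPKM are means ± SD over 3 libraries. Replicates differed beyond sampling noise in all pairs (chi-square per degree of freedom 3.02 to 15.9). Intervals of ratios are 95% exact ones and cover counting error only. Alternatives were RLE scaling, library size alone, DESeq2 1.42.0, other filters, limma 3.58.1 on log2(FPKM + 1) or log2(FPKM + 0.1), the chromosome median removed, each library left out and a replicate block.

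The 6 genes and the 10 gene lists were chosen with earlier results of these data known. Named were the 6 genes, MPO and EZH2, up to 5 called genes with the smallest p per list, 13 lineage, receptor and granule genes whatever their call, up to 4 tested neighbours per locus and the 8 closest profiles, and 11 further tested genes and some untested ones were named after their values were seen.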

Additional observations from a re-analysis of the deposited data

How the results depend on the processing

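The direction of the 6 genes held in every setting run. The log2 fold changes of CLC, EPX, PRG2 and PRG3 moved most where a pseudocount was added to FPKM, which understates low genes: with log2(FPKM + 1), filtered or not, CLC was at 5.66, EPX at 2.76, PRG2 at 1.63, PRG3 at 0.91 and the median at 1.37, and with log2(FPKM + 0.1) the median was 2.04. With the chromosome median removed, PRG2 was at 2.33, RNASE2 at 0.52 and the median at 2.5, and with 1 library left out the median was 2.12 to 2.39. PRG3 did not pass a filter of 1 CPM in 3 libraries, which gave neither its value nor the median. Nothing in the labels ties libraries with the same number to each other, and they did not deviate together (correlation of deviations 0.036 for number 3 and 0.012 for number 4). With a replicate block the log2 fold changes were 6.2 for CLC, 4.41 for EPX, 2.08 for PRG2, 2.57 for PRG3, 0.55 for RNASE2 and 1.11 for RNASE3.

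Counts of called list genes were small and, where they moved, did so by few genes. The lower receptor genes were 2 at 1 CPM in 3 libraries and in limma on unfiltered log2(FPKM + 1), and 2 to 4 with 1 library left out (2 without EZH2 shRNA library 1 or 3 or control library 3). The lower transcription factor genes were 2 with no filter and 1 to 2 with 1 library left out (2 without control library 5). At 1 CPM the higher lipid mediator genes were 2, the higher basophil and mast cell genes 3 and the higher monocyte genes 0. With no filter the higher paralogs were 2, the higher specific granule genes 2, the lower ones 1 and the lower monocyte genes 1. In limma on unfiltered log2(FPKM + 1) the higher paralogs were 2, the lower specific granule genes 1, the higher monocyte genes 1 and the lower monocyte genes 1. With 1 library left out the lower paralogs were 1 to 3 (1 without EZH2 shRNA or control library 4), the higher monocyte genes 1 to 2 (1 without control library 3 or 4) and the lower monocyte genes 0 to 1 (1 without EZH2 shRNA library 1, 3 or 4 or control library 5). Among single genes, 43 results lost their call, 3 gained one and 3 changed sign, none of them called: with 1 library left out AC005393.1 ranged from -0.12 (without EZH2 shRNA library 3) to 0.77, and XBP1 from -0.05 to 0.02, with 0.02 without control library 4 and 0.00 without EZH2 shRNA library 3. The cause of these changes was not tested. Among the 6 genes, depth limits PRG3 most, which had the fewest counts.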
